A study of Mus musculus with 2 samples.

Results

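ADAMTS proteases are secreted, zinc-dependent metalloproteinases that cut proteoglycans, procollagens and other matrix proteins outside the cell. Members of the family were followed here across the cell types of the mouse fracture callus. The 8 genes are Adamts1, Adamts2, Adamts4, Adamts5, Adamts6, Adamts9, Adamts12 and Adamts15, taken by symbol from the 32285 genes listed for each library. They were taken by name, with earlier results of these data known, and each was found once in both libraries.

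Callus was isolated from wild-type mice after femoral fracture, dissociated with enzymes and profiled by droplet scRNA-seq, in which each transcript molecule is counted once through its unique molecular identifier (UMI). Calluses were harvested from adult male C57BL/6J mice at 10 and 20 days after fracture, with 5 mice at each time, and cells of different mice are not told apart in the files. The 2 libraries carry the names MGJ and MGJ2 and no time point, so neither was assigned to one and no difference between them was tested. Both share the genotype and the fracture, and no unfractured sample was analysed here.

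MGJ held 14295 barcodes with a median of 5026 UMIs, and MGJ2 held 8009 with a median of 4952. Barcodes with at least 200 genes and at most 20% mitochondrial UMIs that were not called doublets were kept, which left 12948 and 7568 cells. The libraries shared 19 barcodes. Cell classes were rebuilt from marker genes, carry the ending "-like" for that reason, and may differ from the annotation of the study. Chondrocyte-like cells numbered 2439 in MGJ and 132 in MGJ2, and all 10 chondrocyte markers, among them Col2a1, Matn1 and Cnmd, were detected in both. Fibroblast-like (559) and mural-like (145) cells reached the minimum of 50 cells in MGJ only. A further 918 cells of MGJ, led by Tnmd, Pamr1 and Thbs4, had leading genes of more than 1 type and stayed unnamed. The chondrocyte clusters also held a sub-cluster led by Ifitm5, Car3 and Bglap2 (77 cells in MGJ and 15 in MGJ2). It was set aside from the chondrocyte-like class because 2 of its leading genes, Ifitm5 and Bglap2, were osteoblast markers. All 10 chondrocyte markers were detected in it too, with Col2a1 in MGJ at 25.5% of the chondrocyte-like level. Free cartilage RNA was present in MGJ, where 87.8% of the kept cells outside the chondrocyte clusters held a Col2a1 UMI, against 24.0% in MGJ2.

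Aggrecan gives cartilage its resistance to compression, and it is broken down where cartilage is remodelled. ADAMTS4 and ADAMTS5 are the main aggrecanases. ADAMTS1, ADAMTS9 and ADAMTS15 also cut aggrecan or its relative versican, ADAMTS2 removes the amino-terminal propeptide of fibrillar procollagens, ADAMTS12 can cut cartilage oligomeric matrix protein (COMP), and ADAMTS6 has been tied to fibrillin microfibrils. Most members are made with a propeptide that furin-like convertases remove, and TIMP3 is the main tissue inhibitor of the aggrecanases.

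Adamts1 and Adamts5 are neighbours on chromosome 16 of GRCm38, both on the reverse strand, at chr16:85793827-85803113 and chr16:85856173-85901828. The other members lie apart, Adamts4 on chromosome 1, Adamts9 on 6, Adamts15 on 9, Adamts2 on 11, Adamts6 on 13 and Adamts12 on 15. Adamts2 overlaps genes of the opposite strand, Gm12198, Gm12199 and Gm12200, and so does Adamts9, with A730049H05Rik, Gm15737 and 9530026P05Rik. Whether reads were counted by strand is not given in the sources used here, so counts of these members could hold reads of the overlapping gene.

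RefSeq promoter sequences (GRCm38.p6, 250 bases before and 50 bases after the start, in the direction of the gene) matched 4 of the 8 members. The promoters of Adamts2 and Adamts12 are printed because the levels of these genes followed each other most closely across the callus, and that of Adamts1 because it had the most UMIs of the members. Capitals mark a GC box (GGGCGG, or CCGCCC where it lies on the other strand) or TATAAA.
Adamts2, chr11:50601835-50602134, forward strand: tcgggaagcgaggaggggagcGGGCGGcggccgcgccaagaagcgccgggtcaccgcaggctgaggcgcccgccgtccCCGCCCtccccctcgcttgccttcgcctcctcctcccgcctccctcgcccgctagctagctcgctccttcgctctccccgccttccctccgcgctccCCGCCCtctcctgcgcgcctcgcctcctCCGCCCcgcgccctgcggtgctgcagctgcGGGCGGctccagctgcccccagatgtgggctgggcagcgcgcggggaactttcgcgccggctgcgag
Adamts12, chr15:11064523-11064822, forward strand: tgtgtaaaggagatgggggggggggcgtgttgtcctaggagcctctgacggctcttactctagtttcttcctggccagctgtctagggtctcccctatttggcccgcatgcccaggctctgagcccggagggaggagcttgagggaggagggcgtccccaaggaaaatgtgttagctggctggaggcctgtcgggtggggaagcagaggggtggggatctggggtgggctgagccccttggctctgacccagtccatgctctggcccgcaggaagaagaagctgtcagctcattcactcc
Adamts1, chr16:85803064-85803363, reverse strand: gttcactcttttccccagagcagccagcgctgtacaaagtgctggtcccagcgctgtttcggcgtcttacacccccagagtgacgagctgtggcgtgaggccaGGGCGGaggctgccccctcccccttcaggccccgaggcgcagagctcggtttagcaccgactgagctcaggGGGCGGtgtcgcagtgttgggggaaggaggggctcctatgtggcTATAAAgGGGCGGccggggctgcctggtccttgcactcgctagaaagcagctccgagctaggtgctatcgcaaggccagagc
Both strands were searched for 4 motifs. GGGCGG was found 5 times in the Adamts2 window, 3 times in that of Adamts1, once in that of Adamts9 and not in that of Adamts12, while 35.9% of 27025 promoters of this length hold it. TATAAA, held by 14.2% of promoters, was found in the Adamts1 window alone, 32 bases before the start. CCAAT (37.9% of promoters) and the AP-1 motif TGANTCA (7.93%) were in none of the 4 windows. A match is a description of these letters and no site of binding.

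Levels are given below as CPM, the UMIs of the gene in each 1000000 UMIs of the class, with exact Poisson 95% intervals in brackets. All intervals cover counting error only, since cells of 1 library are not replicates and cells of different mice were not told apart. A UMI is counted once per molecule whatever the length of the transcript, and levels are compared here between classes of cells and not between genes.

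Adamts5, the aggrecanase that prevails in mouse cartilage, was a gene of skeletal and connective tissue cells. In MGJ it stood at 115.2 CPM (112–118) in the chondrocyte-like class, 198 in the fibroblast-like class, 176 in the Tnmd cluster and 353 in the Ifitm5 sub-cluster. It stood at 37.7 CPM (30.3–46.4) in endothelial-like and 26.4 (18.1–37.3) in mural-like cells, which were not told apart by the interval of their ratio, while all steps above them in the order were. Neutrophil-like and macrophage-like cells were at 3.26 and 1.59 CPM. In MGJ2 the Ifitm5 sub-cluster was at 363 CPM (160 UMIs in 15 cells), and the chondrocyte-like class at 60.1 (52.6–68.5) was the highest of the classes with at least 50 cells. Mast or basophil-like cells followed at 28.6 CPM (18.3–42.6), not told apart from endothelial-like cells at 11.5 (3.75–26.9).

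Adamts4, the other aggrecanase, had its highest levels in vessel-associated cells. In MGJ it stood at 185 CPM (168–203) in endothelial-like and 144.5 (124–168) in mural-like cells, above fibroblast-like cells at 38.7 and the Tnmd cluster at 32.4. The chondrocyte-like class was at 10.5 CPM (9.64–11.4), not told apart from the Ifitm5 sub-cluster at 12.1. None of the 1381 macrophage-like or 807 monocyte-like cells of MGJ held an Adamts4 UMI. MGJ2 had the same first class, endothelial-like at 57.7 CPM (37.3–85.2), while its 132 chondrocyte-like cells held 1 UMI (0.263 CPM, 0.00665–1.46).

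The make-up of the aggrecanase transcripts therefore differed between classes. Of the UMIs of Adamts4 and Adamts5 together, Adamts4 made up 84.5% (Clopper-Pearson 95% interval 78.9–89.2) in mural-like and 83.1% (79.6–86.1) in endothelial-like cells of MGJ. It made up 16.4% (14.9–18.0) in fibroblast-like cells, 15.5% in the Tnmd cluster, 8.36% (7.70–9.06) in chondrocyte-like cells and 3.31% in the Ifitm5 sub-cluster. Within the chondrocyte-like class the share was 10.3% (9.46–11.3) at low, 4.10% at moderate and 3.54% (2.46–4.91) at high Col10a1. In MGJ2 it was 1 of 230 UMIs (0.435%) in chondrocyte-like cells. When 2141 chondrocyte-like cells of MGJ were each thinned to 10000 UMIs, 815 held Adamts5 without Adamts4, 50 held Adamts4 without Adamts5, 89 held both and 1187 held neither.

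Adamts1, which cuts aggrecan and versican and is also a gene of ovulation and vessel growth, was spread over all the stromal and vascular classes. Fibroblast-like cells of MGJ were at 358 CPM (346–370), mural-like at 322, endothelial-like at 299, chondrocyte-like at 229.8 (226–234), the Tnmd cluster at 222 and the Ifitm5 sub-cluster at 208. These 6 lay within a factor of 2 of each other, the last 3 were not told apart as neighbours, and neither were mural-like from endothelial-like cells. The next named class with more than 3 UMIs, neutrophil-like cells, was at 8.16 CPM (6.47–10.2). Had those cells held cartilage RNA alone, in proportion to their Col2a1, 3.58 CPM of Adamts1 would have been found. In MGJ2 endothelial-like cells were at 466 CPM (404–535) and chondrocyte-like cells at 62.0 (54.3–70.4).

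Adamts9, which cuts versican and is known from blood vessel and heart development, had its highest levels in vascular classes. It stood at 188 CPM (171–206) in endothelial-like and 140.4 (120–163) in mural-like cells of MGJ, against 18.3 in fibroblast-like, 15.3 in the Ifitm5 sub-cluster, 5.04 in chondrocyte-like cells and 4.89 in the Tnmd cluster. In MGJ2 endothelial-like cells were at 157 CPM (122–199), mast or basophil-like cells at 46.5 (33.1–63.6) and chondrocyte-like cells at 10.5 (7.51–14.3). Each of these steps in MGJ2 was told apart from the next.

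Adamts15 had the fewest UMIs of the members, 158 in MGJ and 24 in MGJ2. It was highest in mural-like cells at 14.9 CPM (8.81–23.5), followed by fibroblast-like cells at 8.36 and the Tnmd cluster at 3.43. No UMI was found in 2439 chondrocyte-like cells of MGJ, where 3 UMIs would give 0.0582 CPM, and none in the 132 of MGJ2, where 3 UMIs would give 0.788 CPM.

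Adamts2, the procollagen N-proteinase, and Adamts12 shared an order of classes in MGJ that put mural-like first and fibroblast-like second. Adamts2 was at 292 CPM (263–324) in mural-like, 140.5 in fibroblast-like, 88.0 in the Tnmd cluster, 58.1 in the Ifitm5 sub-cluster, 16.3 in endothelial-like and 5.24 (4.63–5.90) in chondrocyte-like cells. Adamts12 ran from 84.2 CPM (68.7–102) in mural-like and 50.8 in fibroblast-like cells through 21.0 and 20.9 in the Ifitm5 sub-cluster and the Tnmd cluster to 14.3 in endothelial-like and 3.59 (3.09–4.14) in chondrocyte-like cells. In MGJ2, which lacked the mural-like and fibroblast-like classes, Adamts2 was at 34.6 CPM (15 UMIs, 13 of them in 1 cell) in endothelial-like and 6.30 (4.04–9.38) in chondrocyte-like cells. Adamts12 was there at 7.88 CPM (5.32–11.2) in chondrocyte-like cells, not told apart from 6.93 in endothelial-like cells. The 9 cells of the Tnmd cluster and the 15 of the Ifitm5 sub-cluster in MGJ2 held 27 and 61 UMIs of Adamts2 and 8 and 7 of Adamts12, and were too few to rank.

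Adamts6 was under 30 CPM in every class and was also found in lymphoid classes. The Tnmd cluster (9.90 CPM), the Ifitm5 sub-cluster (8.88), fibroblast-like (6.50) and chondrocyte-like cells (5.20, 4.59–5.86) of MGJ were not told apart as neighbours in this order, while the intervals of the Tnmd cluster (8.41–11.6) and the chondrocyte-like class at its ends did not overlap. In MGJ2 chondrocyte-like cells were at 19.7 CPM (15.5–24.7), not told apart from B cell-like cells at 13.9 (9.08–20.4, 26 UMIs). T cell-like cells were at 7.78 CPM (35 UMIs), NK cell-like at 7.13 (21 UMIs), dendritic-like at 4.53 and neutrophil-like at 0.556 (3 UMIs). Endothelial-like cells of MGJ2 held no Adamts6 UMI, which allows a level of up to 8.52 CPM by the Poisson interval.

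**Figure D1:**
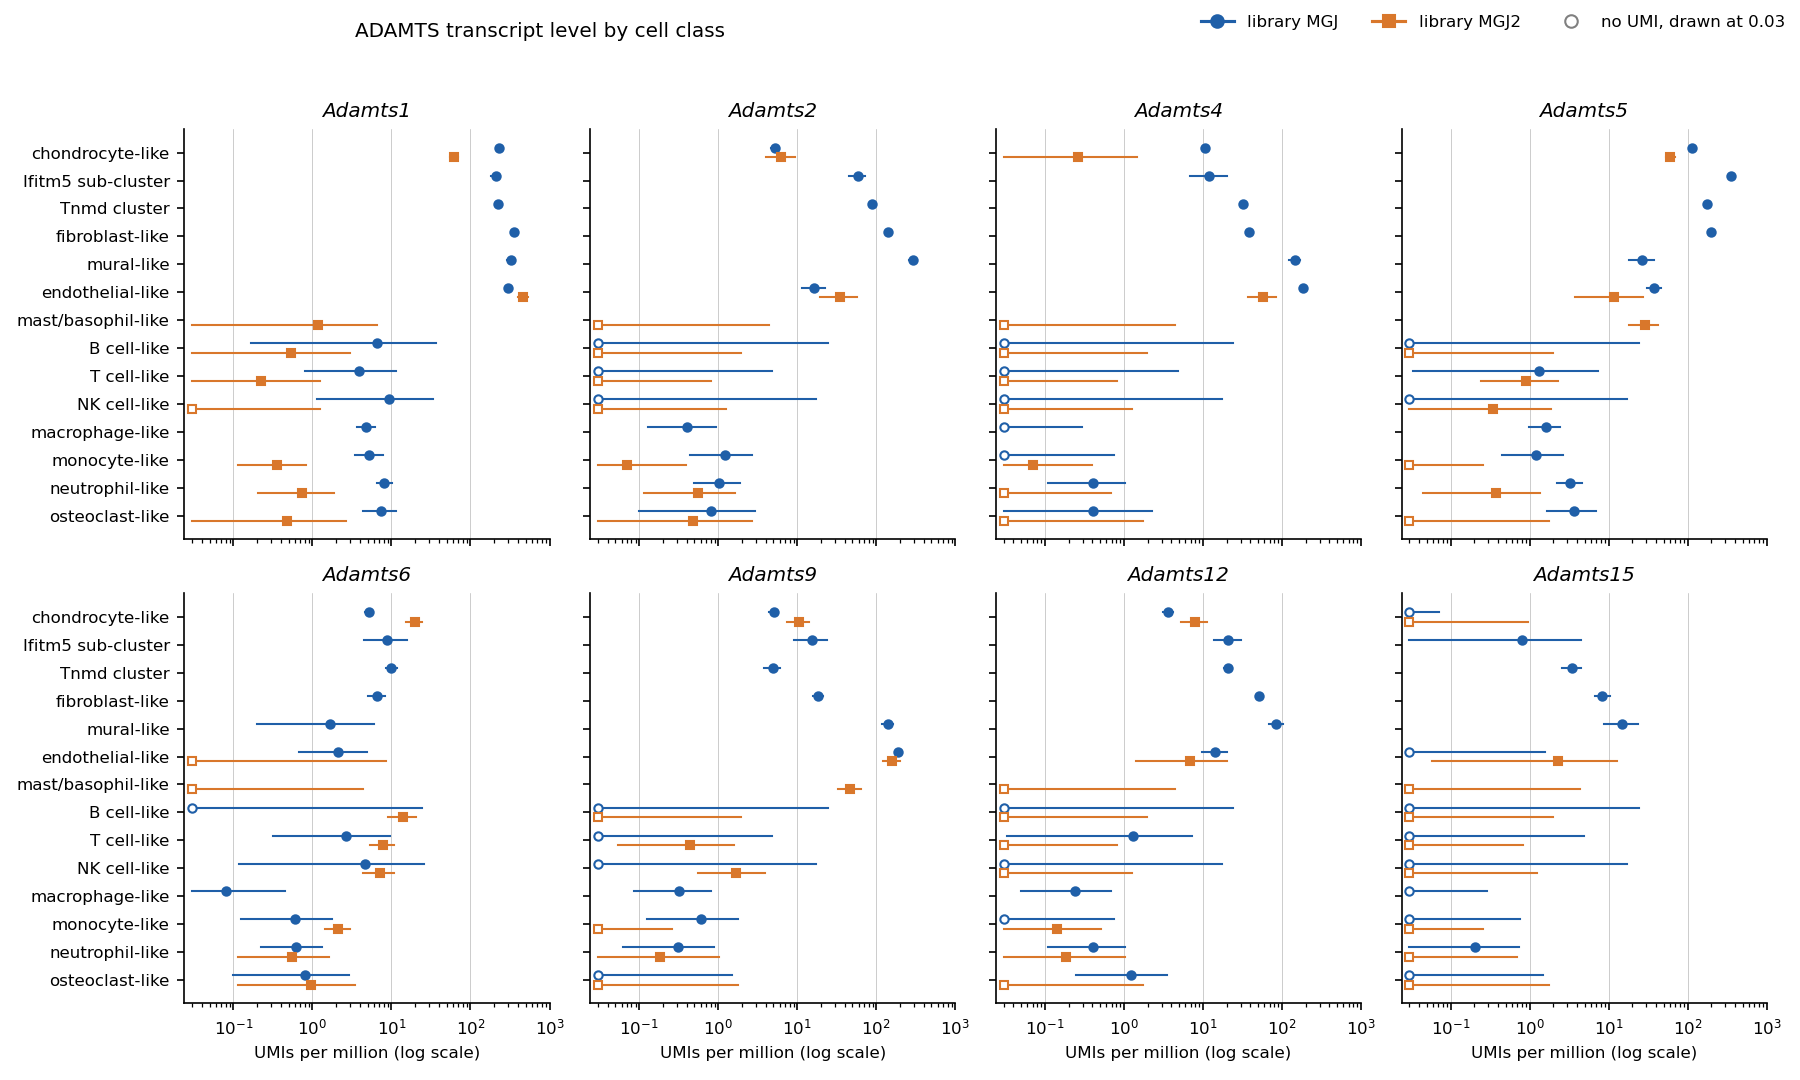
Level of each of the 8 ADAMTS genes (x axis, CPM, log scale) by cell class (y axis) in libraries MGJ (circles) and MGJ2 (squares). Lines are exact Poisson 95% intervals. An open symbol is a class with no UMI, drawn at 0.03 CPM, where intervals also end. Classes of under 50 cells in a library are not drawn. Dendritic-like, immature neutrophil-like, myeloid progenitor-like and erythroid-like cells are left out whatever their number. Adamts4 and Adamts9 are highest in endothelial-like cells of both libraries, Adamts2, Adamts12 and Adamts15 in mural-like cells of MGJ, and Adamts15 has no UMI in chondrocyte-like cells.

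Detection per cell followed the levels once depth was made equal. With each cell thinned to 2000 UMIs, 24.3% (22.6–26.1) of 2394 chondrocyte-like cells of MGJ held an Adamts1 UMI and 17.0% (15.5–18.6) an Adamts5 UMI, against 58.5% and 50.7% before thinning at a median depth of 21011 UMIs. Neutrophil-like cells, taken as a class that should lack these genes, were at 1.51% and 0.731% (1916 cells thinned, 2689 shallower ones left out, median depth 1841). Adamts2, Adamts4, Adamts6, Adamts9 and Adamts12 were found in 0.835% to 1.92% of thinned chondrocyte-like cells of MGJ, and in 0.104% to 0.209% of neutrophil-like cells. In MGJ2, 7.75% (3.78–13.8) of 129 thinned chondrocyte-like cells held Adamts1, 8.53% held Adamts5 and 5.43% (2.21–10.9) held Adamts6, against 0.215%, 0.143% and 0.0717% of neutrophil-like cells. Fibroblast-like cells of MGJ were at 40.3% for Adamts1, 26.4% for Adamts5 and 26.0% for Adamts2.

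The next comparison asked how the members differ with the Col10a1 level of chondrocyte-like cells. Hypertrophic chondrocytes, the last stage before cartilage is replaced, make Col10a1, so cells were split by their own Col10a1 level into low (under 1000 CPM), moderate, and high (at least 10000 CPM). MGJ had 1610, 335 and 494 such cells and MGJ2 had 54, 28 and 50. These are ranges of a measure and not cell types, and 67 and 79 of the 2439 cells of MGJ lay within 1.25-fold of the lower and the upper limit (5 and 6 of 132 in MGJ2). Of 7 genes known from hypertrophy, 6 were at least 2-fold higher at high than at low Col10a1 in MGJ, with Ihh at 9.72-fold and Mmp13 at 4.06-fold. In MGJ2, 3 of the 7 were, and Panx3 was lower (0.484). Of 6 genes taken as a check of the low range, 2 were at least 2-fold lower at high Col10a1 in MGJ and 4 in MGJ2. Sox9 (0.841), Matn1 (0.977), Col9a1 (0.617) and Fgfr3 (0.865) stayed inside that limit in MGJ.

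Adamts6 was higher in Col10a1-high cells, and 4 other members were lower, in MGJ. Genes with at least 50 UMIs on both sides together were counted as tested, and a ratio of at least 2 or at most 0.5 as higher or lower. Of the 7 members tested in MGJ, 1 was higher and 4 were lower, beside 8.17% and 10.7% of all 11884 genes tested. The median ratio of the 7 members was 0.467, and that of all genes 0.969.

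Adamts6 stood at 3.14 CPM (2.57–3.81) at low, 6.10 (4.50–8.09) at moderate and 11.2 (9.22–13.4) at high Col10a1, a ratio of high to low of 3.55 (2.70–4.67). Thinned to 10000 UMIs a cell, 3.08% of low and 10.1% (7.37–13.4) of high cells held an Adamts6 UMI. Along 7 bins of rising Col10a1 it went from 3.14 CPM under 100 CPM of Col10a1 to 13.2 (9.95–17.3) at 30000 and above. Adamts4 went the other way, from 14.0 CPM (12.7–15.3) at low to 5.21 at moderate and 3.30 (2.29–4.61) at high Col10a1, a ratio of 0.236 (0.162–0.335). Its level was between 13.5 and 14.6 CPM in the 3 bins under 1000 CPM of Col10a1 and between 3.19 and 6.22 in the 4 bins above.

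Adamts9 (0.452, 0.296–0.669), Adamts2 (0.459, 0.302–0.675) and Adamts12 (0.467, 0.280–0.740) were lower at high Col10a1 at low levels throughout, each resting on 21 to 30 UMIs in the high cells. The intervals of these 3 ratios reach above 0.5. Fibroblast markers moved with them: the 10 fibroblast markers summed to 2685 CPM in low and 1105 in high cells of MGJ, with all 10 detected in the low and 9 in the high cells, and their part in these ratios was not tested. Adamts1 went from 246.9 to 192.8 CPM (0.781, 0.743–0.820) and Adamts5 from 121 to 90.0 (0.742, 0.690–0.797), both inside the 2-fold limits. Where Col10a1 and the hypertrophy genes did not count as a chondrocyte's own, which left 42 high against 1551 low cells, the direction turned for Adamts1 (1.55), Adamts5 (1.29) and Adamts12 (1.40). Among the bins of MGJ, Adamts5 was highest at 156 CPM (144–168) in cells with 300 to 1000 CPM of Col10a1, which belong to the low range. The bin of 1000 to 3000 CPM, at 148 (136–161), had an overlapping interval.

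In MGJ2 only Adamts1, Adamts5 and Adamts6 had enough UMIs, and the first and last of them were higher at high Col10a1, beside 7.27% of 5623 genes that were higher and 9.48% that were lower. The median ratio of the 3 was 2.20, and that of all genes 0.969. Adamts6 went from 10.9 CPM (16 UMIs) to 23.9 (38 UMIs), a ratio of 2.20 (1.20–4.23). Over 11 alternatives its ratio ran from 1.36, with each library clustered alone, to 2.34, and most of them were short of 2-fold.

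Adamts1 went from 17.7 CPM (11.5–25.9) to 101.9 (86.8–119) in MGJ2, a ratio of 5.77 (3.80–9.10) opposite in direction to that of MGJ. One of the 50 high cells held 46 of their 162 Adamts1 UMIs, and the share of cells with a UMI after thinning to 10000 UMIs was 17.4% (7.82–31.4) at low and 25.5% (13.9–40.4) at high Col10a1, with intervals that overlap. The ratio was 1.90 with the set-aside sub-clusters kept, 2.02 with at most 10% mitochondrial UMIs and 1.85 with finer clusters. Genes of the dissociation response, which rise during enzymatic digestion, summed to 5467 CPM in the low and 6840 in the high cells of MGJ2, and to 5382 and 4758 in MGJ. The sum of MGJ held Ier3, which went from 2449 CPM at low to 781 at high Col10a1. The median ratio of the genes tested was above 1 in both libraries, at 1.45 in MGJ and 1.34 in MGJ2. All 13 genes of this response were tested in MGJ, with 1 higher (Atf3) and 1 lower (Ier3), and 11 in MGJ2, with 3 higher. Their part in the Adamts1 ratios was not tested. Adamts5 was at 57.7 CPM (85 UMIs, 26 of them in 1 cell) at low and 74.2 (118 UMIs, 35 of them in 1 cell) at high Col10a1 of MGJ2, a ratio of 1.29 (0.965–1.72). Over 11 alternatives that ratio ran from 0.569 to 1.90 and was above 1 in 5 of them. Adamts9 (30 and 9 UMIs) and Adamts2 (18 and 3 UMIs) fell under the limit for testing and had ratios of 0.278 (0.116–0.601) and 0.154 (0.0291–0.529).

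**Figure D2:**
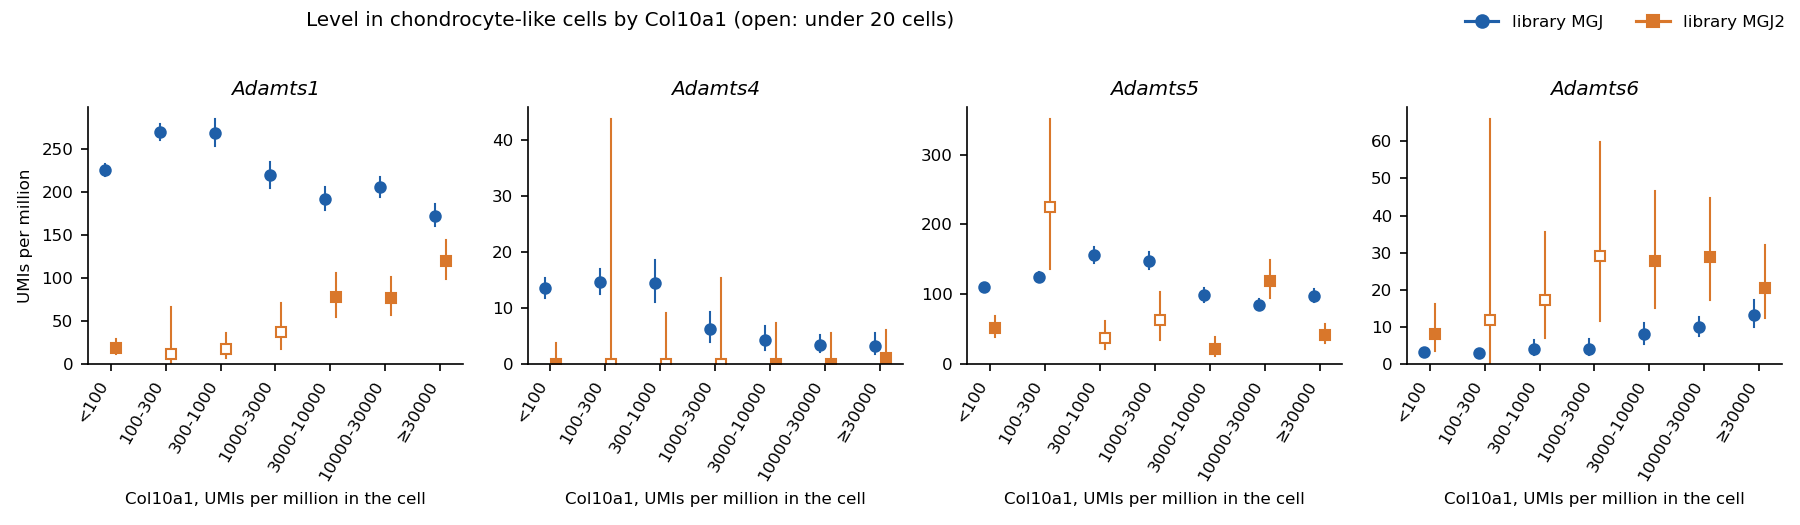
Level of Adamts1, Adamts4, Adamts5 and Adamts6 (y axis, CPM, each panel with its own scale) in chondrocyte-like cells binned by their own Col10a1 level (x axis, CPM), in MGJ (circles) and MGJ2 (squares), with exact Poisson 95% intervals and open symbols for bins of under 20 cells. In MGJ Adamts6 reaches 13.2 and Adamts4 drops to 3.19 in the last bin, and Adamts1 of MGJ2 goes from 18.3 to 119.6.

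The stages were spread unevenly over sub-clusters of the chondrocyte-like class. Sub-clusters were built without the members, and their levels are given as a description. Col10a1, which sets the stages, was not among the genes kept out of clustering. Where high and low cells fell was therefore partly fixed in advance, also for comparisons inside a sub-cluster. In MGJ 421 of the 494 Col10a1-high cells lay in sub-cluster 2, led by Pank1, Col10a1 and Aldh1a3, while 670 and 464 of the 1610 low cells lay in sub-cluster 0, led by Penk and Tfpi2, and sub-cluster 1, led by Nos2, Hp and Chil1. Adamts1 was at 348 CPM (339–358) in sub-cluster 1, 260 in the dividing cells of sub-cluster 6 (Ube2c, Top2a), 222 in sub-cluster 0, 168 in sub-cluster 5 (Espn, Cdsn), 146.5 in sub-cluster 2 and 36.4 (30.4–43.2) in sub-cluster 3, led by Kctd14 and Slc40a1. Adamts5 was likewise highest in sub-cluster 1 at 168 CPM (162–175) and lowest in sub-cluster 3 at 28.8 (23.5–34.9). Adamts4 ran from 18.1 CPM in sub-cluster 0 to 0.839 (3 UMIs) in sub-cluster 3, and Adamts6 was highest in sub-cluster 2 at 10.5 CPM (8.75–12.5).

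Comparing high with low Col10a1 inside a sub-cluster was possible in 2 of them, and turned the direction for Adamts1. Inside sub-cluster 1 its ratio was 1.19 (1.08–1.32, 37 high against 464 low cells) and inside sub-cluster 2 it was 3.14 (2.29–4.41, 421 against 32 cells), against 0.781 over all chondrocyte-like cells of MGJ. Adamts5 had ratios of 0.840 (0.702–0.999) and 2.34 (1.59–3.57), against 0.742 over all. For Adamts6 they were 2.73 (1.09–5.99) and 2.10 (0.796–7.87), above 1 as over all cells, the second with an interval that includes 1. The Adamts4 ratio inside sub-cluster 1 was 0.707 (0.333–1.33), and inside sub-cluster 2 the low cells held no UMI. In MGJ2, 47 of 50 high cells were in sub-cluster 2, and 20 of 54 low cells in sub-cluster 3.

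**Figure D3:**
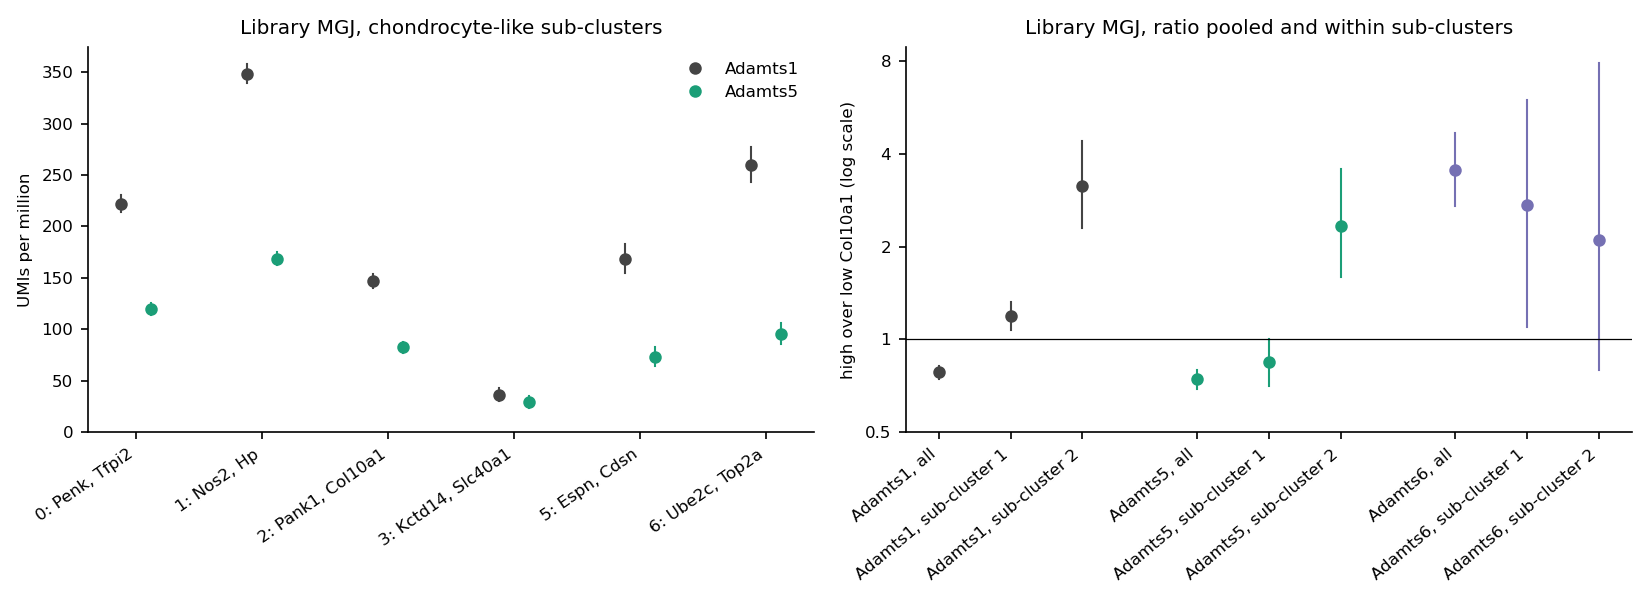
Left, level of Adamts1 and Adamts5 (y axis, CPM) in the 6 chondrocyte-like sub-clusters of MGJ (x axis, by number and leading genes), with exact Poisson 95% intervals. Right, ratio of Col10a1-high to Col10a1-low cells (y axis, log scale) for Adamts1, Adamts5 and Adamts6 over all chondrocyte-like cells of MGJ and inside sub-clusters 1 and 2, with exact 95% intervals; Adamts1 goes from 0.781 over all cells to 1.19 and 3.14 inside them.

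Chondrocyte-like cells were also compared with all other kept cells of the same library. Both the other cells and the levels in chondrocyte-like cells differed between MGJ and MGJ2, and the part of either in these ratios was not tested. Against all other kept cells of MGJ, none of the 8 members was at least 2-fold higher and 5 were lower, at a ratio of at most 0.5, beside 14.2% and 26.6% of 14552 genes tested. The median ratio was 0.429 for the members and 0.865 for all genes. Adamts1 (1.88, 1.83–1.94), Adamts5 (1.59, 1.53–1.65) and Adamts6 (1.42, 1.19–1.70) were above 1, but Adamts6 was at 0.733 where Col10a1 and the hypertrophy genes did not count as a chondrocyte's own. Adamts2 (0.112), Adamts12 (0.251), Adamts9 (0.385) and Adamts4 (0.473) were lower, and Adamts15, at no UMI against 156, was at least 39.4-fold lower, taking 3 UMIs as the least that could have been seen. When each cell had the same weight instead of each UMI, 3 members were higher (Adamts1 3.76, Adamts5 3.64, Adamts6 2.98) and 2 were lower. The share of all genes called under that weighting is not given here, so this count has no background beside it.

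In MGJ2, where the other cells were mostly immune, 5 of the 7 members tested were higher and 1 was lower, beside 19.9% and 33.1% of 12995 genes. The median ratio of the 7 was 6.89, and that of all genes 0.779. Adamts5 was 30.5-fold higher (24.1–38.8), Adamts1 8.20-fold (6.95–9.66), Adamts12 7.48-fold (4.64–11.9), Adamts6 6.89-fold (5.16–9.15) and Adamts9 2.93-fold (2.03–4.13). Adamts2 had a ratio of 1.21 (0.763–1.84), which ran from 1.08 to 10.4 over 10 alternatives. The 1 member counted as lower was Adamts4, at 0.245 on a single UMI, with an interval of 0.00610 to 1.42 that includes 1. These ratios moved with the naming of clusters. Where Col10a1 and the hypertrophy genes did not count as a chondrocyte's own, Adamts1 was at 1.06, Adamts6 at 1.91 and Adamts5 at 12.4, and with each library clustered alone Adamts1 was at 17.0, Adamts12 at 57.2 and Adamts5 at 82.1.

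Against the fibroblast-like class of MGJ, a class that also makes fibrillar matrix, every member had a lower level in chondrocyte-like cells, 5 of them by at least 2-fold. None was higher by that limit, beside 16.3% of 12765 genes that were higher and 19.0% that were lower. The median ratio was 0.274 for the members and 0.939 for all genes. Adamts2 was at 5.24 against 140.5 CPM (0.0373, 0.0326–0.0425), Adamts12 at 3.59 against 50.8 (0.0706), Adamts4 at 10.5 against 38.7 (0.271), Adamts9 at 5.04 against 18.3 (0.276), and Adamts15 at least 144-fold lower (no UMI against 81). Adamts1 (0.642, 0.618–0.667) and Adamts5 (0.582, 0.553–0.613) stayed inside 2-fold, and the interval for Adamts6 included 1 (0.799, 0.605–1.07). Fibroblast-like cells held 1.17% of the Col2a1 level of chondrocyte-like cells.

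**Figure D4:**
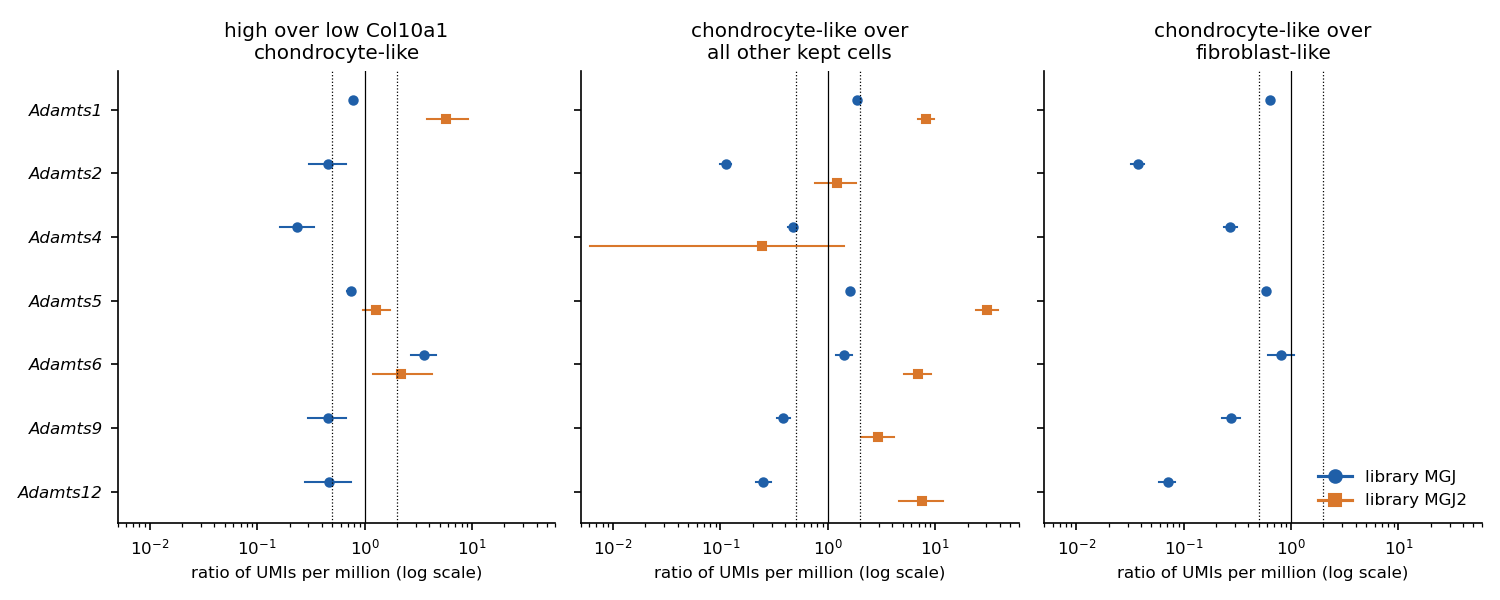
Ratio of levels (x axis, log scale) for 7 ADAMTS genes in 3 comparisons, with exact conditional 95% intervals, for MGJ (circles) and MGJ2 (squares); dotted lines mark ratios of 0.5 and 2, and members under 50 UMIs are not drawn. Adamts15, with no UMI in chondrocyte-like cells, has no point, and all 7 points of the fibroblast-like panel lie below 1.

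The remaining ADAMTS genes were mostly scarce in cartilage. Of 11 others, 7 passed the count limit in MGJ against fibroblast-like cells, with 1 higher and 3 lower. Adamts18 was found in chondrocyte-like cells (2.64 CPM, 136 UMIs) and not in fibroblast-like ones, and within the class it went with low Col10a1, at 127 UMIs (3.80 CPM) in low against 1 (0.0971 CPM) in high cells. Adamts3 and Adamts14, which share the procollagen substrates of Adamts2, were at 7.02 and 4.75 CPM in chondrocyte-like and 4.96 and 13.4 in fibroblast-like cells, ratios of 1.42 (1.05–1.96) and 0.354 (0.285–0.441). Adamts7, the relative of Adamts12 that also cuts COMP, was at 1.16 against 17.9 CPM (0.0651), and Adamts16 at 0.582 against 25.7 (0.0226). Of 6 ADAMTS-like genes, whose products lack the protease domain, the 4 tested were all lower than in fibroblast-like cells, from 0.124 for Adamtsl5 to 0.293 for Adamtsl3.

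Substrates of the proteases were split between the same classes. Acan (5381 against 112 CPM) and Comp (9530 against 324) were 48.0-fold and 29.4-fold higher in chondrocyte-like than in fibroblast-like cells of MGJ, while Vcan (10.2 against 508), Fbn1 (45.4 against 747) and Fbn2 (13.7 against 134) were lower, which makes 2 higher and 3 lower of 6 tested. Across stages Acan went from 4884 to 6314 CPM in MGJ (1.29) and from 4388 to 5032 in MGJ2 (1.15), and Fbn1 was lower at high Col10a1 in both, at 0.314 and 0.270. Among the procollagens cut by ADAMTS2, Col1a1 and Col3a1 were lower at high Col10a1 in MGJ (0.412 and 0.460), and Col2a1 was not (0.883). In MGJ2 Col1a1, Col1a2 and Col3a1 were (0.242 to 0.418).

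Timp3 was the inhibitor whose level changed most with stage. It went from 458 CPM at low to 1913 at high Col10a1 in MGJ, a ratio of 4.18 (4.09–4.27), and from 705 to 1231 in MGJ2, a ratio of 1.75 (1.62–1.88) inside the 2-fold limit. It was also 4.41-fold higher in chondrocyte-like than in fibroblast-like cells, whereas Timp2 was lower (0.204) and Timp1 stood at 0.592. Of the 3 inhibitors tested across stages, 1 was higher in MGJ and none in MGJ2, and Timp4 had too few UMIs. Pcsk6, a convertase of the furin family, was higher at high Col10a1 in both libraries, from 51.6 to 325 CPM in MGJ (6.30, 5.94–6.68) and from 98.5 to 894 in MGJ2 (9.08, 7.65–10.8). It was the 1 of 5 genes of uptake, activation and cofactors that passed 2-fold in that comparison. Furin had ratios of 1.68 and 1.62. Lrp1, the receptor that clears ADAMTS4 and ADAMTS5 from the matrix, stood at 0.760 and 0.579 across stages and was lower in chondrocyte-like than in fibroblast-like cells (0.317). Sdc4 and Fn1, which have been described as partners of the aggrecanases, were 4.65-fold and 4.41-fold higher than in fibroblast-like cells.

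Genes with the most similar pattern were sought over the 32 points made by classes and stages of both libraries, as the Pearson correlation of log2(CPM + 10) among 10627 genes that reached 20 CPM in at least 1 point. The points share libraries and depth and are not independent, so no p is given. Adamts2 and Adamts12 were each other's nearest gene (r = 0.970), followed by Lhfp and Nfatc4 for Adamts2 and by Serping1 and Bdnf for Adamts12. The genes nearest to Adamts4 were Meox2 (0.967), Nox4 and Prss23, and those nearest to Adamts9 were Kitl (0.927), Lama5 and Sparcl1. Tcim (0.973), Tead1 and Osmr were nearest to Adamts1, and Rcn3 (0.949), Rhobtb3 and Pdgfrl to Adamts5. For Adamts6 no gene came closer than 1110002L01Rik (0.780), with Kcnk5 and Enpp1 next. Levels of Adamts6, such as 3.14 CPM at low and 11.2 at high Col10a1 in MGJ, were small or near the 10 CPM added. The part of this in its r was not tested. Adamts15 stayed under 20 CPM in every point and was not matched. The aggrecanases Adamts4 and Adamts5 had r = 0.488 with each other, and the neighbours Adamts1 and Adamts5 had r = 0.827. Pairs on different chromosomes ran from -0.0407 (Adamts6 and Adamts9) to 0.970 (Adamts2 and Adamts12). The part of position in these values was not tested.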

How the data were processed

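Droplet scRNA-seq (10x Genomics) was performed by the authors on 2 libraries of wild-type mouse fracture callus. The deposited matrices hold UMI counts per gene and barcode for barcodes called as cells, without normalization. Their headers name Cell Ranger 4.0.0. GRCm38, Cell Ranger and Seurat are named in the submitters' processing notes, and the gene annotation is not given in the sources used here. The total was 135304426 UMIs in MGJ and 61130834 in MGJ2, and this depth sets the intervals.

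Barcodes with under 200 genes (371 and 70) or over 20% mitochondrial UMIs (464 and 133) were left out, as were doublets called by a Scrublet-type simulation score of at least 0.25 (512 and 238 barcodes, 3.80% and 3.05%, where loading would lead one to expect 10.8% and 6.24%). That limit was chosen after the automatic one called no barcode in MGJ. Counts were scaled to 10000 per cell, and 2000 variable genes and 30 principal components were clustered with scanpy 1.11.5 and leidenalg 0.10.2 at resolution 1 (0.5 for sub-clusters). The members and most of the gene lists (41 genes) were kept out of clustering. A cluster was named from 24 marker lists when at least 3 markers were detected and its 10 leading genes did not go against the name. Counting Col10a1 and the hypertrophy genes as a chondrocyte's own was chosen after the leading genes were seen. Unnamed cells made up 9.92% and 5.13%, and sub-clusters led by another type (301 and 27 cells) were set aside.

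UMIs were summed per class. Intervals are exact (Poisson, conditional binomial, Clopper-Pearson, scipy 1.17.1) at 95%. No test between libraries was made, because the labels assign no time point, and the replicate number of mice is not in the barcodes. Named genes are all genes of the lists and the 3 nearest genes of each member. Members, lists and limits were chosen with earlier results of these data known. Positions come from GENCODE for GRCm38, in which 32235 of 32285 identifiers were found. The count and interval code was tested on simulated data. Alternatives (15 planned and 1 added) are described at the end.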

Additional observations from a re-analysis of the deposited data

Results flagged for a closer look

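Barcodes removed by the filters held UMIs of the members, a signal outside the comparisons above. In MGJ the 8 genes summed to 320 CPM (3115 UMIs in 1347 removed barcodes), against 336 CPM in all kept cells. In MGJ2 they summed to 13.8 CPM (46 UMIs in 441 removed barcodes), against 39.8 CPM in all kept cells. Adamts1 made up the largest part of the sum in MGJ at 156 CPM, with Adamts5 at 75.7 CPM.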

How the results depend on the processing

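Under 16 alternative settings, 1 of them added after seeing the data, 488 values were recomputed: 368 kept their size or count, 119 moved and 1 reversed. Counts of members under these settings are given without the share of all genes, and only show how the counts moved. Reversed here means that a ratio called as higher or lower by 2-fold crossed 1. It was the Adamts12 ratio of high to low Col10a1 in MGJ, 1.40 when Col10a1 and the hypertrophy genes did not count as a chondrocyte's own (42 high against 1551 low cells). The cause was not tested. That setting also left 1 member higher and 3 lower against all other cells of MGJ, and took ratios that had not been called across 1, those of high to low Col10a1 in MGJ to 1.55 for Adamts1 and 1.29 for Adamts5, and that of Adamts6 over all other cells of MGJ to 0.733. The uncalled Adamts5 ratio of high to low Col10a1 in MGJ2 fell below 1 in 6 of 11 alternatives, to 0.569 at the lowest. Adamts6 kept a ratio of high to low above 1 in every alternative that gave one, from 2.45 to 4.40 in MGJ and from 1.36 to 2.34 in MGJ2, as did Adamts1 in MGJ2, from 1.85 to 6.41. Adamts4 stayed at 0.122 to 0.481 in MGJ.

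The count of members higher at high Col10a1 in MGJ2, 2 as reported, was 1 with doublet calls kept, at most 10% mitochondrial UMIs, resolution 0.5, each library clustered alone, each cell weighted equally, or lower Col10a1 limits, and 0 at resolution 2 or with set-aside sub-clusters kept. The count lower there, 0 as reported, was 2 with at most 10% mitochondrial UMIs, with set-aside sub-clusters kept or with genes of at least 10 UMIs, and 1 at resolution 0.5. In MGJ the 4 members lower at high Col10a1 became 1 with each library clustered alone. Against all other cells of MGJ, 3 members were higher and 2 lower with each cell weighted equally, and 2 were higher at a ratio of 1.5. In MGJ2 the 1 lower member became 0 at resolution 0.5, with each library clustered alone or with set-aside sub-clusters kept, and 2 with genes of at least 10 UMIs.

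Thinned to 1000 UMIs in place of 2000, by construction fewer chondrocyte-like cells held a UMI: in MGJ 15.03% for Adamts1, 0.496% for Adamts2, 1.16% for Adamts4, 8.67% for Adamts5 and 0.537% for Adamts6, and in MGJ2 3.79% for Adamts5 and 0% for Adamts9. With each library clustered alone MGJ had no fibroblast-like class, so that comparison gave no value. Stages of MGJ2 gave none with stage taken from the sub-cluster or with hypertrophy genes not counted as own, where a side fell under 20 cells. No paired analysis was possible because neither library belongs to a group. Depth limits Adamts4 and Adamts15 in MGJ2 most, at 60 and 24 UMIs in all kept cells.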

Other observations

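Members with a signal outside the connective and vascular classes were Adamts6, Adamts9 and Adamts5 in MGJ2. Adamts6 was found in 26 UMIs over 553 B cell-like, 35 over 807 T cell-like and 21 over 688 NK cell-like cells, while the 463 immature neutrophil-like cells held none. In MGJ, with 69, 217 and 70 cells of these 3 classes, Adamts6 had 0, 2 and 1 UMIs. The 106 mast or basophil-like cells of MGJ2 held 39 UMIs of Adamts9 and 24 of Adamts5, and no UMI of Adamts2, Adamts4, Adamts6, Adamts12 or Adamts15. Col2a1 in that class was at 0.0685% of its level in chondrocyte-like cells.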
